A study of Mus musculus with 37 samples.

Results

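Enteroendocrine cells are the hormone-producing cells of the intestinal epithelium. The 10 genes described here are the markers and products of these cells: the granins Chga and Chgb, the transcription factor Neurod1, the enzyme Tph1, and the hormone precursors Gcg, Cck, Sct, Ghrl, Gip and Sst. They were chosen by symbol, singly and as a sum, from 31533 genes listed in the count tables of 3 RNA sequencing experiments on murine jejunal organoids. All 10 symbols were found in all 3 tables, and 10, 7 and 10 of them had enough counts to be tested in the experiments on whole organoids, on sorted cells and on irradiated organoids. Irradiation of the organoids went with higher levels of these genes in sorted Lgr5-EGFP+ cells. With vasoactive intestinal peptide (VIP) alone, 1 of the 10, Cck, passed an adjusted p of 0.05 in whole organoids, where 4.82% of all tested genes did. None passed in sorted cells without irradiation, where 0.0885% (72 h) and 0.742% (irradiation experiment) of all tested genes did. No member differed past the threshold in its response to VIP between whole organoids and sorted cells.

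Enteroendocrine cells arise from the same crypt stem cells as enterocytes, goblet, Paneth and tuft cells, and Neurod1 acts in the endocrine branch of this lineage. They hold their products in dense-core granules, in which granins help to pack the peptides, and release them in response to nutrients in the lumen. Single cells can hold several products, and the set of products shifts as a cell moves out of the crypt. VIP is a neuropeptide whose receptors are known to raise cyclic AMP in the epithelium.

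Whole organoids were grown from the jejunum of adult C57Bl/6 mice and were left untreated in 3 mice or treated with 100 nM VIP for 72 h in 4 mice. The sorted cells came from organoids of mice with the allele Lgr5-EGFP-IRES-CreERT2, in which green fluorescence marks stem and progenitor cells, and 4 mice gave an untreated and a VIP-treated sample each after 72 h. In the irradiation experiment, organoids of the same genotype from 4 further mice gave 4 samples each: not irradiated or irradiated with 6 Gy, and untreated or treated with VIP for 48 h after the exposure. Organoids hold the epithelium alone, without nerves or immune cells, and the fluorescent sort takes cells by the reporter. Whether sorted cells had begun to differentiate, and how pure the sort was, were not measured here. Donor mice were adults of either sex, each gave 1 organoid line, and mouse numbers below hold within an experiment only.

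The libraries count 1 unique molecular identifier (UMI) for each captured 3′ end, so that a count does not grow with transcript length. Depth was 3722716 to 6330404 UMIs per culture in whole organoids, 575242 to 1104126 per sample in the sorted cells, and 1075715 to 1876729 in the irradiation experiment. Values are given as CPM, that is, UMIs scaled to a total of 1000000 over the tested genes after TMM correction, each table being scaled on its own. Lgr5 was present in all sorted groups (14.7 to 56.3 CPM in the sorted cells and 12.6 to 39.0 CPM in the irradiation experiment), and so were all 6 Paneth and all 8 goblet cell markers. Single libraries bear on some results. In whole organoids, the second technical library of VIP-treated mouse 3 correlated with the first library of the same culture at r = 0.943 and with the libraries of untreated mice 1 and 2 at r = 0.977 to 0.982 (log2 CPM), while the paired libraries of the other cultures correlated at r = 0.981 to 0.987. The first library of that culture correlated with the libraries of untreated mice 1 and 2 at r = 0.925 to 0.952. Its median r with its own group was 0.958, against 0.973 for the second library. The 1 library of untreated mouse 3 had a median r of 0.948 with its group. Which of the libraries is atypical was not settled. Values without the second library are given below, and no fit left out the first alone. In the irradiation experiment, the VIP-treated, non-irradiated sample of mouse 3 held more of the 10 genes than the other 3 mice.

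The promoters of the 10 genes were read from RefSeq (GRCm38.p6) as 250 bases before and 50 bases after each annotated start, 14 windows in all. They were searched for the cAMP response element, TGACGTCA, and its core TGACG on both strands, because VIP receptors raise cyclic AMP. TGACGTCA was in 1.79% of all 32851 promoters of the mouse genome and TGACG, which it contains, in 20.8%. Chgb and Sst held the full element and Chga, Cck and Tph1 the core, all within 100 bases before the start, where 10.5% of all promoters hold the core. The letters were not found in the windows of Gcg, Neurod1, Sct, Ghrl and Gip. Stretches of 30 bases around the match are given 5′ to 3′ on the strand of the gene, with the match in capitals (CGTCA is TGACG on the other strand).
Chga, chr12:102554885-102554914: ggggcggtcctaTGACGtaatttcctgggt
Chgb, chr2:132781559-132781588: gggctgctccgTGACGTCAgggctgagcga
Cck, chr9:121495724-121495753: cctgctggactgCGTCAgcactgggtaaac
Tph1, chr7:46672556-46672585: aaaatgtgcgtgTGACGctgcgtgtgctag
Tph1, chr7:46667407-46667436: cattggccgttcTGACGatgcgcttctcct
Sst, chr16:23890874-23890903: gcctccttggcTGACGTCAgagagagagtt
Chga and Chgb lie on the plus strand, Cck, Tph1 and Sst on the minus strand. In GENCODE M21, the stretches of Chga and Cck and the first of Tph1 lie upstream of the gene, the other stretch of Tph1 lies in an intron at an internal start, and those of Chgb and Sst lie in exonic 5′ untranslated sequence, since the GENCODE starts of these genes lie further upstream. These matches describe the sequence, and binding to them was not measured.

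The genes are spread over the genome. The granin genes Chga and Chgb are at chr12:102554969-102565028 and chr2:132781278-132795079 of GRCm38. Neurod1 is at chr2:79452521-79456751 and Tph1, which catalyses the first step of serotonin synthesis, is at chr7:46644641-46672537. Of the hormone genes, Gcg is at chr2:62474530-62483650, Cck at chr9:121489824-121495694, Sct at chr7:141278330-141279133, Ghrl at chr6:113716119-113719880, Gip at chr11:96024545-96030831 and Sst at chr16:23889573-23890958. Neurod1 overlaps Cerkl on its own strand and Gm26755 on the other, and Ghrl overlaps the antisense gene Gm26982 and Gm44033, so that the counts of both genes are uncertain where reads fall in the overlap.

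The summed level of the 10 genes was 1022 ± 34.8 CPM (SD, n = 3) in untreated and 1127 ± 123 CPM (n = 4) in VIP-treated whole organoids. The sorted cells varied more between mice, with 590.1 to 2051 CPM in untreated and 551 to 1597 CPM in VIP-treated samples, mouse 3 being the highest and mouse 4 the lowest of both groups. In the irradiation experiment the sum was highest in irradiated, VIP-treated cells with 7661 ± 2058 CPM, followed by irradiated, untreated cells with 6543 ± 1076, non-irradiated, untreated cells with 3728 ± 481 and non-irradiated, VIP-treated cells with 3131 ± 1352 CPM (SD, n = 4 each). The first and the second of these means differed by less than the SD of the first, and so did the third and the fourth with respect to the SD of the fourth. The highest and lowest samples of each group were 6040.4 to 10678, 5634 to 8089, 3169.8 to 4267 and 2087 to 5100.3 CPM, so that all 8 irradiated samples lay above all 8 non-irradiated ones.

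**Figure D1:**
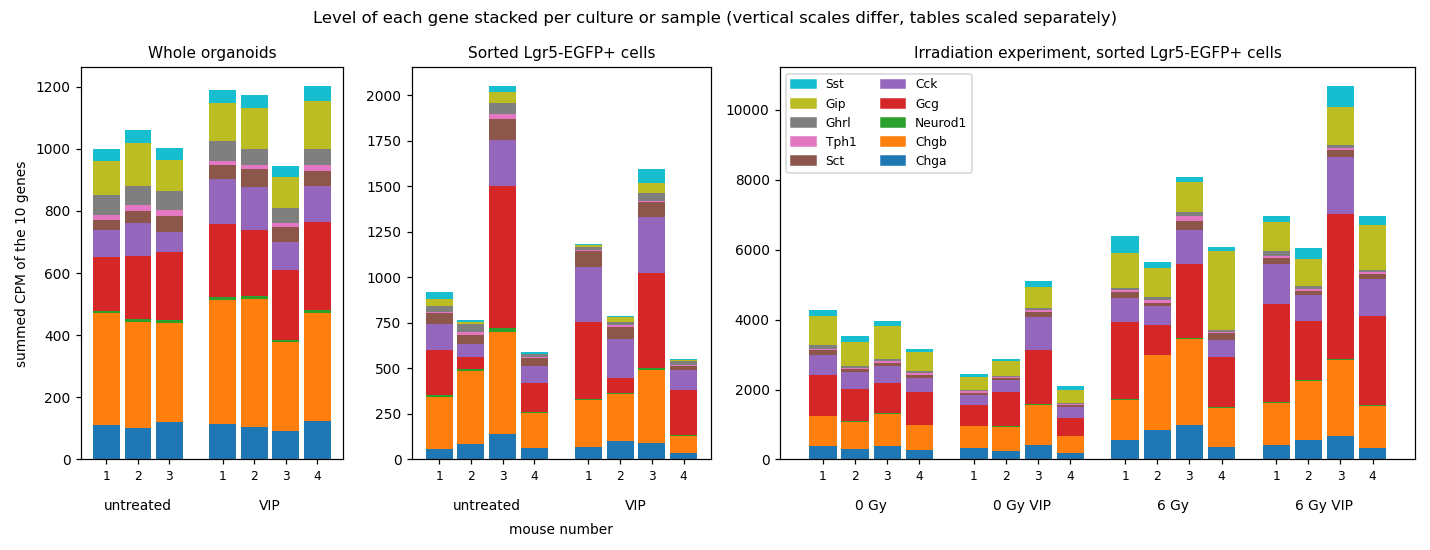
Summed level of the 10 genes in CPM, stacked by gene, for each culture or sample, with the mouse number under each bar and the group below. Vertical scales differ between the 3 panels. The irradiated samples lie between 5634 and 10678 CPM and the non-irradiated samples of the same experiment between 2087 and 5100.3 CPM.

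A few genes made up most of the sum, and which ones differed between experiments. Chgb gave 33.4% ± 2.31 of the summed UMIs in untreated whole organoids, followed by Gcg, the precursor of the glucagon-like peptides, with 19.3% ± 2.22 and Gip with 11.4% ± 1.45 (SD, n = 3). In the untreated sorted cells Chgb gave 36.1% ± 11.4 and Gcg 25.1% ± 12.2, whereas Gip, the glucose-dependent insulinotropic polypeptide, gave 2.39% ± 1.62, and Sst, the inhibitory peptide somatostatin, 1.99% ± 1.40 (SD, n = 4). In the irradiation experiment Gcg (26.5% ± 3.27), Chgb (21.8% ± 1.49) and Gip (19.98% ± 2.84) led in non-irradiated, untreated cells. Neurod1, the transcription factor, was the lowest member there, at 0.265% ± 0.0136 of the sum. With irradiation and VIP together, Gcg made up 36.0% ± 5.54 of the sum, against 24.9% ± 8.13 with irradiation alone, and the range over mice was 28.0% to 40.5% against 15% to 34.8%. These shares are descriptions and were not tested. CPM of different tables were scaled separately, so levels are not compared between experiments.

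Irradiation of untreated organoids raised 4 of the 10 genes in sorted Lgr5-EGFP+ cells: the granins Chgb and Chga, Tph1 and Sct. All 10 were fitted above 0, against 49.3% of all tested genes, and their median log2 fold change was 0.69, against −0.0041 over all genes. In edgeR's quasi-likelihood test with the mouse as a block, 4.46% of the 9976 genes tested passed an adjusted p of 0.05 (Benjamini-Hochberg), 286 higher (2.87%) and 159 lower. DESeq2 called 3 of the members and 281 genes in all, and with all genes of any count in edgeR's test 9 passed, against 2.06% of genes. That fit had infinite prior degrees of freedom, so the genes' own spread between mice did not enter it, and its calls carry less weight here and below. The sum of the 10 genes rose 1.75-fold (log2 change 0.81 ± 0.21, SD, n = 4, higher in 4 of 4 mice). Single members were higher in every mouse in 5 of 10, against 11.0% of all tested genes. In bulk RNA, more cells of a type and more RNA per cell cannot be told apart, and this holds for all values given here.

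The granins showed this most clearly. Chgb had 846, 769, 927 and 697 CPM in the non-irradiated samples of mice 1 to 4 and 1166, 2129.8, 2454 and 1119 CPM in the irradiated ones. All 4 irradiated samples lay above all 4 non-irradiated samples, a separation seen for 4.64% of all tested genes, and the fold change was 2.01 (log2 fold change 1.01, SE 0.12, adjusted p = 9.82e-06). Chga, the other granin, went from 390.1, 308, 387 and 276 CPM to 543, 854, 977 and 342 CPM. It was higher in 4 of 4 mice, but the irradiated sample of mouse 4 lay below the non-irradiated samples of mice 1 and 3 (log2 fold change 0.93, SE 0.14, adjusted p = 1.0e-04). Mice 2 and 3 had the larger rises of both granins, with log2 differences of 1.47 and 1.40 for Chgb, against 0.46 and 0.68 in mice 1 and 4.

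Tph1, expressed by the serotonin-producing enterochromaffin cells, rose from 34.5, 36.9, 62.4 and 35.3 CPM to 52.7, 104, 124 and 46.6 CPM. The groups overlapped through the high non-irradiated sample of mouse 3, and within mice Tph1 was higher in 4 of 4 mice (log2 fold change 0.95, SE 0.17, adjusted p = 0.00114). Sct, the precursor of secretin, rose from 138, 84.5, 93.3 and 88.5 CPM to 164, 91.2, 264 and 177 CPM, again higher in all 4 mice with overlapping groups (log2 fold change 0.72, SE 0.16, adjusted p = 0.00764). The rise of Sct was the least firm of the 4: its adjusted p was 0.0812 in DESeq2, 0.127 without mouse 3 and 0.105 without mouse 4. Without the mouse as a block, Sct (adjusted p = 0.0789) and Tph1 (adjusted p = 0.0662) did not pass, and Chga and Chgb did.

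The other 6 genes did not pass in untreated organoids in the fit over all 16 samples. Neurod1, with only 12 to 18 UMIs per non-irradiated and 19 to 30 UMIs per irradiated sample, had a log2 fold change of 0.95 (95% interval 0.35 to 1.54, adjusted p = 0.0634). The values for Gcg and Gip were 0.67 (0.23 to 1.10, adjusted p = 0.0780) and 0.66 (0.23 to 1.08, adjusted p = 0.0693), each higher in 3 of 4 mice. Gip in irradiated cells ranged widely, with 1013, 851, 859 and 2243 CPM, and the sample of mouse 4 was the highest. Cck, the precursor of cholecystokinin, was higher in 4 of 4 mice at 0.42 (adjusted p = 0.206), and Sst had 0.59 (−0.056 to 1.23, adjusted p = 0.357), with 468, 147, 143 and 114 CPM in irradiated cells, mouse 1 being the highest. Ghrl, the precursor of ghrelin, had the smallest value, 0.16 (−0.34 to 0.67), and was higher in 2 and lower in 2 mice. Some of these values passed in other fits: Gcg (adjusted p = 0.0168) and Cck (adjusted p = 0.0363) when the 8 untreated samples were fitted alone, Neurod1 without mouse 1 (adjusted p = 0.00885), Gcg without mouse 2 (adjusted p = 0.0123) and Gip without mouse 3 (adjusted p = 0.0419).

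**Figure D2:**
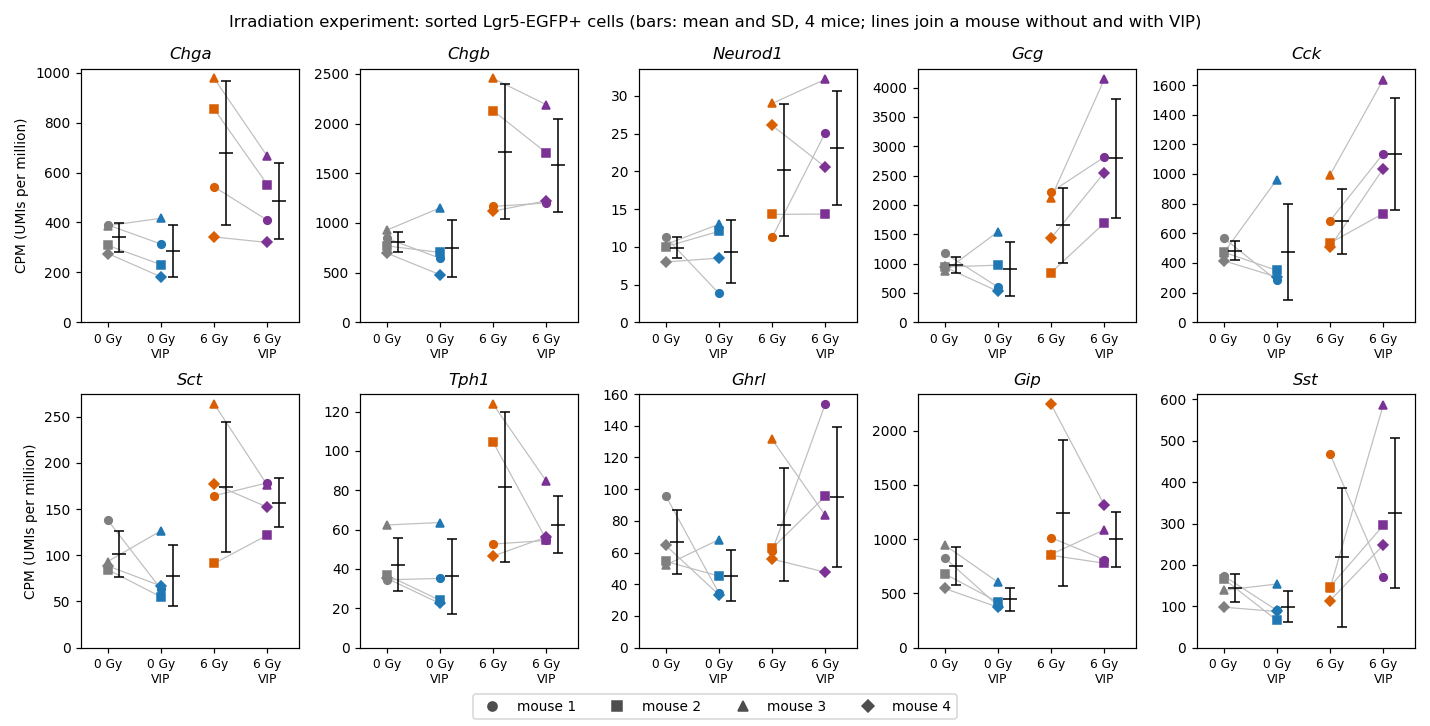
Level of each gene in CPM in the 16 samples of the irradiation experiment, 1 panel a gene, with axes from 0. Symbols mark the 4 mice, grey lines join the untreated and VIP-treated sample of a mouse at one dose, and black bars give mean and SD; the 4 irradiated samples of Chgb without VIP (1119 to 2454 CPM) lie above the 4 non-irradiated ones (697 to 927 CPM).

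With VIP given after the exposure, irradiation raised all 10 genes in sorted Lgr5-EGFP+ cells. Each of the 10 was higher in 4 of 4 mice, against 13.5% of all tested genes, and 7.78% of the 9976 genes passed the threshold, 431 higher (4.32%) and 345 lower. The median log2 fold change of the 10 was 1.12 (0.0015 over all genes), and their sum was 2.54-fold higher (log2 change 1.34 ± 0.33, SD, n = 4). DESeq2 called 9 of the members and 489 genes in all.

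The hormone precursors Sst, Gcg and Cck had the largest changes. Sst went from 90.2, 66.2, 154 and 87.5 CPM in non-irradiated cells of mice 1 to 4 to 171, 295, 586 and 248 CPM in irradiated cells, a 3.23-fold rise (log2 fold change 1.69, SE 0.32, adjusted p = 9.88e-04). Gcg went from 601, 973, 1542 and 529 CPM to 2814, 1691, 4138 and 2551 CPM and was 3.05-fold higher (log2 fold change 1.61, SE 0.22, adjusted p = 1.62e-05). For both genes all irradiated samples exceeded all non-irradiated ones, as they did for Chgb, Neurod1 and Gip, 5 of the 10, against 6.26% of all tested genes. Cck went from 282, 350.0, 962 and 305 CPM to 1137, 733, 1637 and 1036 CPM (log2 fold change 1.34, SE 0.18, adjusted p = 1.19e-05). The groups overlapped for Cck because the non-irradiated sample of mouse 3, at 962 CPM, exceeded the irradiated sample of mouse 2.

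Gip, which is secreted by K cells of the upper small intestine, rose from 387, 421, 604 and 373 CPM to 812, 778, 1086 and 1314 CPM (log2 fold change 1.13, SE 0.21, adjusted p = 8.22e-04). Sct and Ghrl each rose 2.04-fold, with adjusted p-values of 2.23e-04 and 0.0102. Ghrl depended most on single mice: its log2 difference was 2.16 in mouse 1 and 0.29 to 1.08 in the others, and its adjusted p was 0.111 without mouse 1, 0.0531 without mouse 2 and 0.0783 in DESeq2. Chgb rose from 645, 703, 1151 and 479 CPM to 1201, 1705, 2189.6 and 1223 CPM (log2 fold change 1.11, SE 0.12, adjusted p = 5.89e-07). Chga rose 1.70-fold and Tph1 1.78-fold, the smallest rises of the 10 (adjusted p = 7.07e-04 and 0.00441). Tph1 did not pass without mouse 4 (adjusted p = 0.0519), and neither Chga (adjusted p = 0.0673) nor Tph1 (adjusted p = 0.120) passed without the mouse as a block. Neurod1 rose from 5 to 20 UMIs to 18 to 54 UMIs per sample (log2 fold change 1.32, SE 0.28, adjusted p = 0.00346).

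**Figure D3:**
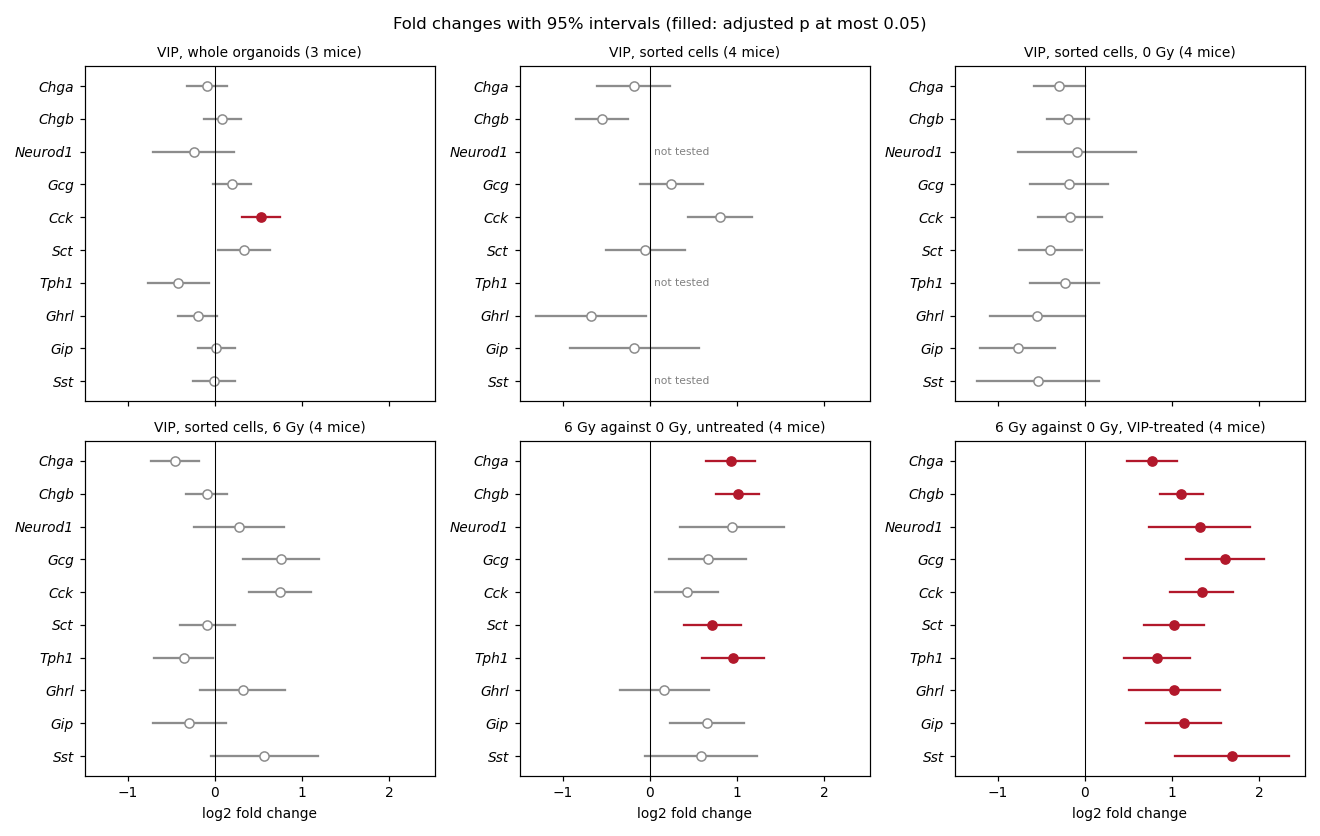
Log2 fold change of each gene (horizontal axis) with its 95% interval in 6 comparisons, filled red where the adjusted p was at most 0.05. In VIP-treated cells irradiation gave 10 filled points between 0.76 and 1.69, and the 4 panels of VIP hold 1 filled point, Cck in whole organoids.

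Markers of other cell types moved with irradiation as well. In untreated organoids the summed markers of Paneth cells changed by 0.88 ± 0.57 on the log2 scale, from 10041 to 14659 CPM to 14651 to 28388 CPM, and 6 of 6 Paneth genes passed the threshold as higher. Goblet cell markers changed by 0.53 ± 0.32 (5 of 8 higher; 5415 to 8343 CPM against 7202 to 10257 CPM) and enterocyte markers by 1.08 ± 1.0 (3 of 6 higher; 331 to 685 CPM against 656 to 2051 CPM), the latter with a wide spread between mice. Tuft cell markers were low, 35.0 to 54.4 CPM against 51.2 to 73.4 CPM, and 0 of the 4 tested passed, 2 of them with an unadjusted p under 0.05. The summed stem cell markers changed by −0.52 ± 0.13 in untreated and −0.70 ± 0.13 in VIP-treated organoids, lower in 4 of 4 mice in both, and 2 of 6 stem cell genes passed as lower in each. In VIP-treated organoids Paneth markers changed by 0.74 ± 0.049 (6 of 6 higher) and goblet cell markers by 0.51 ± 0.18 (3 of 8 higher), each higher in 4 of 4 mice, against 1.34 ± 0.33 for the 10 endocrine genes. Enterocyte markers changed there by 0.71 ± 0.58 (higher in 4 of 4 mice, 0 of 6 past the threshold) and tuft cell markers by 0.53 ± 0.71 (higher in 3 of 4 mice, 0 of 4 tested past it). The part of these shifts in cell types in the rise of the endocrine genes was not tested. Non-epithelial markers amounted to 17.5 to 24.5 and 12.1 to 31.8 CPM without and 31.9 to 74.2 and 25.4 to 52.6 CPM with irradiation, mostly Vim. The immune marker Ptprc, the endothelial marker Pecam1, the neuronal marker Elavl4 and the fibroblast markers Col1a1 and Col3a1 had at most 4 UMIs in any of these samples, and the glial marker Gfap was not in the table.

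**Figure D4:**
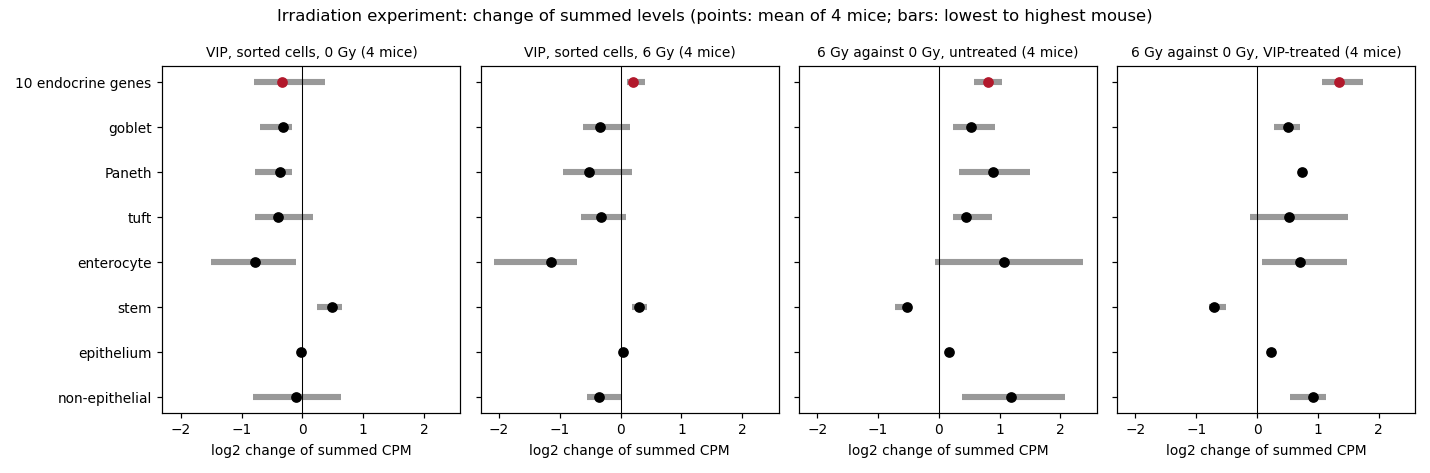
Log2 change of summed CPM in the irradiation experiment for the 10 endocrine genes (red) and for marker lists of other cell types (black), with points for the mean of 4 mice and grey bars from the lowest to the highest mouse. With irradiation the endocrine sum rose by 0.81 without and 1.34 with VIP, while the stem cell sum was lower by 0.52 and 0.70.

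VIP alone went with lower values of these genes in the non-irradiated cells of the irradiation experiment, but no member passed the threshold. All 10 were fitted below 0, with a median of −0.26 (−0.0033 over all genes, of which 49.4% were above 0), and 0.742% of the 9976 genes tested passed. In edgeR's test 4 members had an unadjusted p under 0.05, Gip, Sct, Chga and Ghrl, against 5.73% of all genes in that direction. DESeq2 called 0 members and 74 genes in all, and with all genes of any count in edgeR's test 4 passed, against 0.661% of genes. Gip went from 829, 681, 946 and 546 CPM in untreated cells to 387, 421, 604 and 373 CPM in VIP-treated cells and was lower in 4 of 4 mice (log2 fold change −0.77, SE 0.21, adjusted p = 0.0809). No other member was lower in every mouse, against 10.5% of all tested genes, and Neurod1, fitted at −0.093, was higher in 3 of 4. Sct had a log2 fold change of −0.40 (95% interval −0.76 to −0.033), Chga of −0.29 (−0.59 to −0.0039) and Ghrl of −0.54 (−1.09 to −0.0032). Sst was fitted at −0.53 (−1.23 to 0.16), lower in 3 of 4 mice. Chgb, Gcg, Cck and Tph1 were fitted at −0.19 (−0.44 to 0.053), −0.18 (−0.63 to 0.26), −0.17 (−0.54 to 0.20) and −0.23 (−0.63 to 0.17).

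The 4 comparisons of this experiment share samples: the untreated, non-irradiated samples are the controls of both VIP and irradiation, and the VIP-treated, non-irradiated samples are the treated side here and the controls of irradiation under VIP.

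Mouse 3 went the other way. Its VIP-treated sample had 5100.3 CPM of the summed genes, where the other 3 mice had 2456, 2881 and 2087, and where the 4 untreated samples had 4267, 3524, 3952 and 3169.8 CPM. Cck reached 962 CPM in this sample, against 282, 350.0 and 305 in the others. The change of the sum with VIP was −0.33 ± 0.51 on the log2 scale over 4 mice (SD), from −0.80 to 0.37. Without mouse 3 it was −0.56, and Cck (−0.62, adjusted p = 0.0382) and Sct (−0.74, adjusted p = 0.0436) passed as lower. Gip passed when mouse 4 was left out (adjusted p = 5.25e-04) and when the 8 non-irradiated samples were fitted alone (adjusted p = 5.48e-06). Beside these values, the summed stem cell markers were higher with VIP in 4 of 4 mice (log2 change 0.49 ± 0.18), and the goblet, Paneth and enterocyte sums were lower in 4 of 4 mice (−0.32 ± 0.25, −0.37 ± 0.27 and −0.78 ± 0.67); their part in the result was not tested.

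In irradiated cells, VIP went with higher values of Gcg and Cck and lower values of Chga, again with no member past the threshold. Of all 9976 genes 0.221% passed, and 4 of the 10 members had an unadjusted p under 0.05, Gcg and Cck higher and Chga and Tph1 lower, against 5.75% of all genes. DESeq2 called 0 members and 12 genes in all, and with all genes of any count in edgeR's test 5 passed, against 0.399% of genes. Cck had 685, 534, 992 and 508 CPM in irradiated, untreated cells of mice 1 to 4 and 1137, 733, 1637 and 1036 CPM with VIP, higher in 4 of 4 mice (log2 fold change 0.74, 95% interval 0.39 to 1.10, adjusted p = 0.0695). Gcg had 2218, 846, 2117 and 1434 CPM without and 2814, 1691, 4138 and 2551 CPM with VIP, also higher in 4 of 4 mice (0.76, 0.33 to 1.19, adjusted p = 0.207). Chga had 543, 854, 977 and 342 CPM without and 409, 551, 665 and 319.8 CPM with VIP and was lower in 4 of 4 mice (−0.46, −0.73 to −0.18, adjusted p = 0.289). Samples of the groups overlapped for all 3 genes. Of all tested genes 7.45% were higher and 7.06% lower in every mouse.

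Chgb, Sct and Gip were fitted at −0.093 (−0.33 to 0.15), −0.089 (−0.40 to 0.23) and −0.29 (−0.70 to 0.12), and Tph1 at −0.36 (−0.70 to −0.021), lower in 2 of 4 mice. Neurod1 was fitted at 0.28 (−0.24 to 0.79), higher in 3 of 4 mice, and Ghrl at 0.32 (−0.17 to 0.80), higher in 2 of 4. Sst had 468, 147, 143 and 114 CPM without and 171, 295, 586 and 248 CPM with VIP, higher in 3 of 4 mice, with mouse 1 moving the other way (0.57, −0.048 to 1.18). Without mouse 1 its value was 1.41 with an adjusted p of 3.46e-04. Fitted on the 8 irradiated samples alone, Cck, Gcg and Chga passed, with adjusted p-values of 1.61e-04, 2.16e-04 and 0.00806. The sum of the 10 genes was 1.15-fold higher with VIP in irradiated cells (log2 change 0.21 ± 0.14, SD, higher in 4 of 4 mice), and without Gcg it was −0.021. The stem cell sum was higher in 4 of 4 mice (log2 change 0.30 ± 0.11) and the enterocyte sum lower in 4 of 4 (−1.14 ± 0.64). The Paneth and goblet cell sums were lower in 3 of 4 (−0.52 ± 0.52 and −0.34 ± 0.37), with 0 of 6 Paneth and 1 of 8 goblet genes past the threshold as lower and 6 of each lower at an unadjusted p under 0.05. The part of these lists in the values of the endocrine genes was not tested.

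Whether VIP acted differently after irradiation was tested as an interaction in the same fit. No gene passed of the 9976 tested by edgeR (0%) or by DESeq2, and 634 genes, 6.36%, had an unadjusted p under 0.05 by edgeR. Among the 10 members 4 did, Cck (0.92, 95% interval 0.40 to 1.43, unadjusted p = 0.00113, adjusted p = 0.633), Gcg (0.94, 0.33 to 1.56), Sst (1.10, 0.18 to 2.03) and Ghrl (0.86, 0.13 to 1.59), all above 0. The difference between the effects of VIP on Gcg was above 0 in 4 of 4 mice and on Cck, Sst and Ghrl in 3 of 4. With all genes of any count in the test 5 members passed, against 0.123% of genes. Cck had an adjusted p of 0.00265 without mouse 3, and Sst of 0.00785 without mouse 1. Chga (−0.16, −0.56 to 0.24), Chgb (0.10, −0.24 to 0.44) and Tph1 (−0.12, −0.65 to 0.40) were closest to 0. Sct and Gip were at 0.31 (−0.17 to 0.79) and 0.48 (−0.12 to 1.07). Neurod1 was fitted at 0.37 (−0.48 to 1.22), although its per-mouse difference was above 0 in only 1 of 4. Of the 4 group means, those of Neurod1, Gcg, Cck, Ghrl and Sst were highest in irradiated, VIP-treated cells and those of Chga, Chgb, Sct, Tph1 and Gip in irradiated, untreated cells, and all 10 were lowest in non-irradiated, VIP-treated cells.

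In whole organoids, VIP for 72 h raised Cck and left the other 9 genes short of the threshold. Of the 12727 genes tested 4.82% passed, 474 higher and 140 lower, and 1 of the 10 members did. Cck had 87.9, 105 and 65.5 CPM in the untreated organoids of mice 1 to 3 and 144, 140.1, 89.0 and 115 CPM in the VIP-treated organoids of mice 1 to 4. The groups overlapped, since the VIP-treated culture of mouse 3 lay below the untreated culture of mouse 2, but within mice Cck was higher in 3 of 3, 1.44-fold (log2 fold change 0.53, SE 0.10, adjusted p = 0.00686). Without the second technical library of VIP-treated mouse 3 its adjusted p was 0.00109, without mouse 1 0.194, and without the mouse as a block 0.522.

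Sct had 31.1, 39.8 and 51.2 CPM in untreated and 46.5, 57.7, 47.0 and 50.3 CPM in VIP-treated organoids (log2 fold change 0.33, SE 0.14, adjusted p = 0.237, higher in 2 of 3 mice). Its adjusted p was 0.0472 without the second technical library of VIP-treated mouse 3. It was 8.37e-05 without mouse 3, in which Gcg also passed (adjusted p = 0.0381), a fit with 2 paired mice and infinite prior degrees of freedom. Tph1 was lower in 3 of 3 mice, with 16.5, 17.9 and 20.3 CPM against 14.2, 11.5, 15.1 and 16.6 CPM (log2 fold change −0.42, SE 0.16, adjusted p = 0.200), and Ghrl too (−0.19, adjusted p = 0.396). Against these, 19.5% of all tested genes were higher and 18.7% lower in every mouse. Gcg was higher in 3 of 3 mice (0.19, 95% interval −0.022 to 0.41). The intervals of the other genes were −0.32 to 0.14 for Chga, −0.13 to 0.30 for Chgb, −0.19 to 0.23 for Gip, −0.25 to 0.23 for Sst and −0.70 to 0.22 for Neurod1, the last with 36 to 49 UMIs per untreated culture. The sum of the 10 genes changed by 0.10 ± 0.17 on the log2 scale (SD, n = 3). Goblet cell markers rose in the same organoids (6 of 8 past the threshold, sum 5353 to 7227 CPM against 7719.6 to 9411 CPM), and the tuft cell sum was lower in 3 of 3 mice, 12 to 12.6 CPM against 7.37 to 9.30 CPM, with 0 of 5 genes past the threshold and 1 at an unadjusted p under 0.05.

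**Figure D5:**
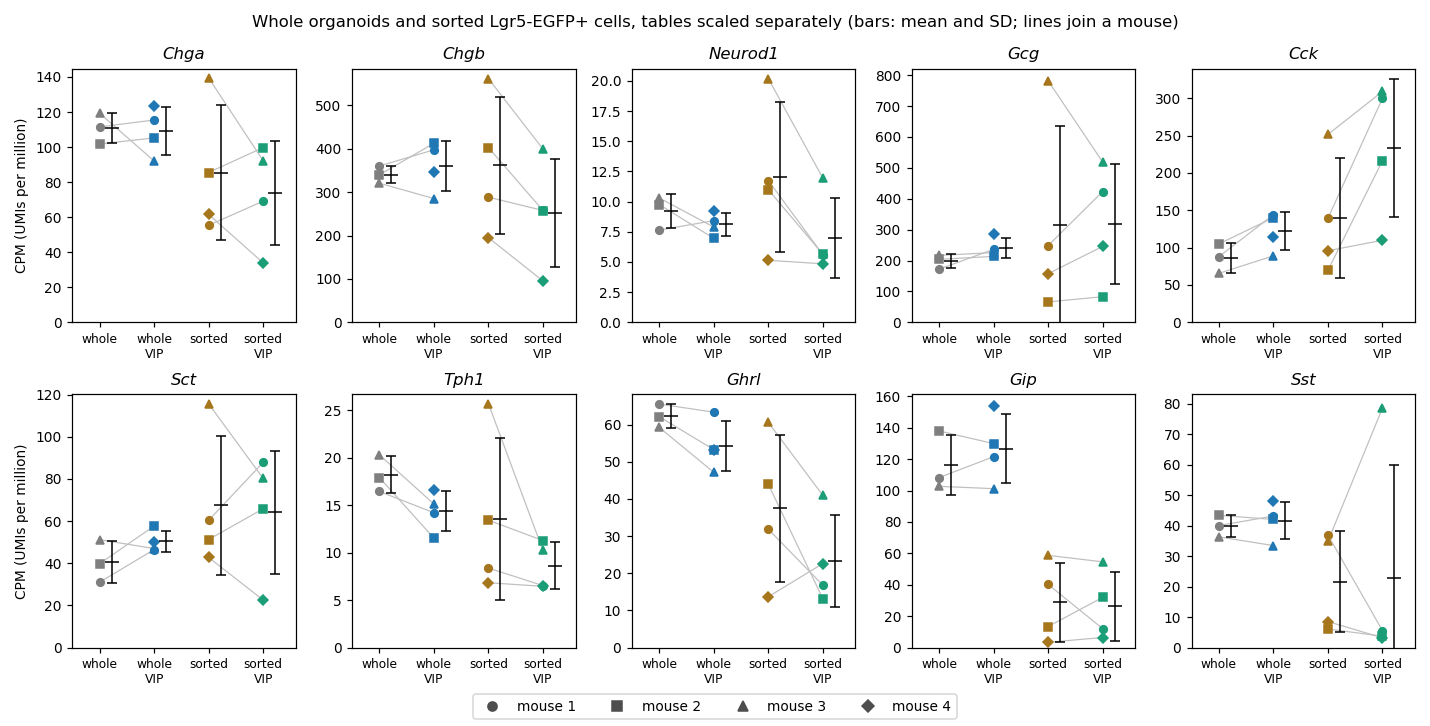
Level of each gene in CPM in whole organoids (3 untreated, 4 VIP-treated) and in sorted Lgr5-EGFP+ cells (4 and 4), with axes from 0. Symbols mark mice, which differ between the experiments, lines join the samples of a mouse, and bars give mean and SD; Cck is higher with VIP in 3 of 3 and 4 of 4 mice.

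In sorted Lgr5-EGFP+ cells, none of the 7 members with enough counts passed the threshold with VIP for 72 h, and 0.0885% of the 6778 genes tested passed. In edgeR's test 3 members had an unadjusted p under 0.05, against 5.50% of all genes. DESeq2 called 0 members and 2 genes in all, and with all genes of any count in edgeR's test 1 of 10 passed, against 0.0829% of genes. Cck was higher in 4 of 4 mice, with 139, 69.6, 252 and 95.8 CPM in untreated and 299.9, 216, 309 and 109.8 CPM in VIP-treated cells (log2 fold change 0.81, SE 0.18, adjusted p = 0.0739, unadjusted p = 9.82e-05). It passed with library size as the only scaling (adjusted p = 0.00951) and without mouse 3 or mouse 4 (adjusted p = 0.00125 and 0.00358). Chgb was lower in 4 of 4 mice, with 288, 403, 562 and 195 CPM against 258, 258, 399.6 and 95.3 CPM (log2 fold change −0.55, SE 0.15, adjusted p = 0.227), where 7.26% of all tested genes were higher and 6.40% lower in every mouse. Ghrl, at 8 to 36 and 7 to 24 UMIs per sample, was lower in 3 of 4 (−0.68, 95% interval −1.31 to −0.045).

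The remaining members of the sorted cells had wide intervals, −0.60 to 0.23 for Chga, −0.11 to 0.61 for Gcg, −0.51 to 0.41 for Sct and −0.92 to 0.57 for Gip. Gcg alone ranged from 65.9 to 782 CPM between untreated mice, and it passed as higher without mouse 3 (adjusted p = 0.0470). Neurod1, Tph1 and Sst had too few counts for the filter, 3 to 11, 4 to 14 and 5 to 22 UMIs per untreated sample and 3 to 7, 4 to 7 and 2 to 46 per VIP-treated sample. Neurod1 and Tph1 were lower with VIP in 4 of 4 mice, and Sst in 3 of 4. In the fit with all genes of any count their log2 fold changes were −0.77 (−1.70 to 0.15), −0.58 (−1.44 to 0.27) and −0.41 (−1.11 to 0.29). The sum had a log2 change of −0.013 ± 0.30 (SD, n = 4), higher in 2 of 4 mice. The goblet, Paneth and tuft cell sums were lower with VIP in 4 of 4 mice (−0.48 ± 0.35, −0.36 ± 0.30 and −0.84 ± 0.60), with 1 of 6 goblet, 0 of 6 Paneth and no tuft cell genes past the threshold (4, 2 and 0 at an unadjusted p under 0.05; no tuft cell gene could be tested), and the stem cell sum was higher in 4 of 4 (0.28 ± 0.078).

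The effect of VIP in the sorted cells was set against that in whole organoids in 1 fit over both tables, in which 0.147% of the 10186 genes tested passed and no member did by edgeR or DESeq2. At an unadjusted p under 0.05, edgeR gave 6.24% of all genes and 1 of the 10 members, Chgb, which was lower with VIP in sorted cells and near 0 in whole organoids (difference −0.63, 95% interval −1.02 to −0.23, adjusted p = 0.397). The values of Chgb in the 2 compartments were −0.55 and 0.087. For Cck the difference was 0.28 (−0.23 to 0.79). For Chga, Gcg and Tph1 it was −0.09 (−0.60 to 0.42), 0.035 (−0.48 to 0.55) and −0.19 (−1.11 to 0.73). For Sct, Ghrl and Gip it was −0.37 (−0.96 to 0.22), −0.50 (−1.15 to 0.15) and −0.23 (−1.0 to 0.54), and for Neurod1 and Sst −0.56 (−1.57 to 0.46) and −0.24 (−1.25 to 0.77). The 2 experiments used different mice and were sequenced and counted as separate tables, so strain, batch and compartment cannot be told apart in this comparison.

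The wider endocrine program was read from 6 further lists. Beside the counts with irradiation given here and in the next paragraph, 2.87% of all tested genes passed as higher and 1.59% as lower in untreated cells. In VIP-treated cells these shares were 4.32% and 3.46%. Of the other gut hormones, 4 of the 10 in the table of the irradiation experiment could be tested, and 3 rose with irradiation in untreated and 3 in VIP-treated cells. Pyy, the L cell peptide YY, rose 1.84-fold and 4.03-fold (adjusted p = 0.0247 and 4.07e-06), from 40.1 ± 5.37 to 76.7 ± 38.4 CPM and from 23.0 ± 8.74 to 96.2 ± 52.2 CPM (SD, n = 4). Tac1, the substance P precursor of enterochromaffin cells, rose 1.54-fold and 1.70-fold (adjusted p = 4.37e-04 and 3.08e-05). Nts, the precursor of neurotensin, passed in untreated cells (3.08-fold, higher in 3 of 4 mice, adjusted p = 0.00566), and Iapp, the amylin precursor, in VIP-treated cells (2.26-fold, adjusted p = 0.0317).

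Genes of granules and prohormone processing rose as well, 8 of 14 tested in untreated and 7 of 14 in VIP-treated cells, and none passed as lower. Of all tested genes, 2.87% and 4.32% passed as higher. The median log2 fold changes of the granule genes were 0.85 and 1.02, against −0.0041 and 0.0015 over all genes. Cpe, the carboxypeptidase that trims prohormones, rose 2.20-fold and 2.49-fold (adjusted p = 2.22e-05 and 1.44e-06), and Scg3, a granin-family protein of the granule membrane, 2.54-fold and 2.53-fold (adjusted p = 0.00589 and 0.00455). Pam, the enzyme that amidates peptide ends, rose 1.95-fold and 1.62-fold, and Bex2 1.56-fold and 2.12-fold, while the granin-family member Scg2 rose 2.51-fold in VIP-treated cells (adjusted p = 0.00266; 2.19-fold, adjusted p = 0.0155, in untreated cells). Of the endocrine transcription factors, 2 of 10 tested rose in untreated cells, Fev (1.89-fold, adjusted p = 0.0135), which is known from serotonin-producing cells, and Etv1 (2.98-fold), and 3 of 10 in VIP-treated cells, Nkx2-2 (2.36-fold), Insm1 (2.22-fold) and Fev (1.89-fold). In the list of serotonin handling, which also holds Reg4, a secreted lectin that does not itself act on serotonin, Reg4 (2.04-fold) and the vesicle transporter Slc18a1 (2.15-fold) rose in untreated cells, and in VIP-treated cells Reg4 and Gch1 rose while Slc6a4, the serotonin reuptake transporter, fell (log2 fold change −1.78, adjusted p = 0.0166, 6 to 12 UMIs per non-irradiated and 1 to 5 per irradiated sample). Of 3 nutrient sensors tested, Slc5a1, a glucose transporter also made by enterocytes, rose in untreated cells (1.5-fold), and no hormone receptor had enough counts to be tested.

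With VIP, genes of these lists passed in whole organoids, and none passed in edgeR's test in the 3 comparisons of sorted cells. There 3 (72 h), 4 (non-irradiated) and 5 (irradiated) had an unadjusted p under 0.05, against 5.50%, 12.4% and 5.75% of all tested genes. The sorted cells and the irradiation experiment had 2 and 4 other hormones tested, 2 and 14 granule genes, and 3 and 10 transcription factors. They had 6 and 8 genes of serotonin handling and 2 and 3 nutrient sensors tested. In whole organoids, Pam (log2 fold change 0.67, adjusted p = 0.0345) and Syt7 (1.14, adjusted p = 0.0452) rose, 2 of 17 granule genes tested. Of all tested genes there, 3.72% passed as higher and 1.10% as lower. Gch1, which makes a cofactor of Tph1, rose 2.11-fold (adjusted p = 5.67e-05), Reg4 rose (0.54, adjusted p = 0.00391), and Slc6a4 fell from 29.9 ± 2.94 CPM (SD, n = 3) to 16.3 ± 3.29 CPM (n = 4; −1.0, adjusted p = 0.00144). None of 6 other hormones, 13 transcription factors and 3 nutrient sensors tested passed in edgeR's test. At an unadjusted p under 0.05 there were 2, 3 and 0, against 16.4% of all tested genes. In untreated whole organoids, the highest of each list were Tac1, Nts and Pyy, at 42.6 ± 7.53, 13.9 ± 1.90 and 8.5 ± 3.13 CPM, among hormones. Rab3d, Cpe and Pam, at 62.5 ± 22.9, 18.1 ± 2.40 and 14.0 ± 1.10 CPM, led the granule genes, and Sox4, Foxa1 and Foxa2, at 289 ± 60.0, 27.5 ± 6.23 and 14.5 ± 3.68 CPM, the transcription factors. Maoa, Reg4 and Qdpr led the list of serotonin handling, at 333 ± 95, 279.8 ± 58.9 and 239.8 ± 8.36 CPM. Slc5a1, Ffar4 and Ffar2 led the nutrient sensors, at 434 ± 63.0, 15.5 ± 4.44 and 5.69 ± 1.44 CPM, and the receptors Htr4, Sstr5 and Gipr were all at or under 0.993 CPM on average.

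The genes most like the sum of the members, over 31 cultures and samples after centring each experiment, were Cpe (r = 0.89), Clps (r = 0.82), Defa30 (r = 0.81), Bex3 (r = 0.81) and Cdkn1c (r = 0.77), out of 6723 genes tested in all 3 tables. Points of one table share scaling and the 16 samples of the irradiation experiment weigh most: within whole organoids r was between −0.12 and 0.35 for these 5. Clps, the pancreatic colipase, and Defa30, a Paneth cell defensin, are not endocrine products. Between members, over the 16 samples of the irradiation experiment, r of log2 CPM was highest for Gcg and Cck (0.94) and for Chga and Chgb (0.93), and lowest for Ghrl and Gip (0.33).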

How the data were processed

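RNA was measured as UMI counts in 37 libraries of 31 cultures or sorted samples. The deposited counts per gene were made by the authors with the Drop-seq pipeline (version 1.0), GRCm38 and GENCODE M25, and are not normalized; all columns matched a sample (0 did not). Technical libraries of a culture were summed, and groups and mice came from the labels. The check for duplicates compared only the summed cultures or samples within each group, and found none. Genes were filtered with filterByExpr (99.6%, 95.5% and 98.8% of UMIs kept in the 3 tables), scaled with TMM and tested with edgeR 4.0.16 (R 4.3.3) in a quasi-likelihood model with the mouse as a block, adjusted by Benjamini-Hochberg over all genes tested. Adjusted p-values named without a tool are from edgeR. The irradiation experiment was fitted with VIP, irradiation and their interaction over 16 samples. Fold changes per mouse, sums and correlations used TMM-scaled CPM (prior count 2 in correlations). Replicates of a group are different mice, and the same mice recur in the groups of an experiment. With the mouse as a block, p-values rest on how differences within a mouse vary from mouse to mouse. edgeR estimates that spread for each gene partly from other genes, with prior degrees of freedom of 11.1, 27.5 and 15.7 in the 3 experiments. A small p-value therefore does not rest on the gene's own spread between mice alone. The spread between mice includes differences in culture, sorting and preparation, which cannot be told apart from it. UMIs limit repeated counting of amplified molecules, while a low count stays imprecise.

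Samples of the same mouse deviated together in whole organoids (r of deviations from group means 0.27 to 0.63 over 3 pairs), less in sorted cells (0.029 to 0.21 over 4 pairs) and hardly in the irradiation experiment (−0.071 to 0.16 over 24 pairs). For samples of different mice r was −0.54 to 0.33, −0.14 to 0.15 and −0.20 to 0.20, so the ranges overlapped in each experiment. In the irradiation experiment the range for the same mouse lay within that for different mice. The pairing was taken from the mouse given in the labels. The members and lists were chosen with earlier results of these data known. All 10 members are named in each comparison. Of each other list, counts are given with up to 3 genes past the threshold per comparison, smallest p first, and in whole organoids the 3 with the highest level. The 5 genes most like the summed members were named among those tested in all tables. Promoter windows came from RefSeq on GRCm38.p6 and gene positions and annotation from GENCODE M21, and the motif was chosen with the letters seen. Alternatives were DESeq2 1.42.0, RLE factors or library size alone, no filter on counts, no mouse block, subsets of samples or technical libraries, and leaving out each mouse. The fits of VIP in whole organoids, VIP in sorted cells and irradiation of VIP-treated cells were also run on simulated counts. Those counts held no mouse effect, and neither interaction was covered. Figures were drawn with matplotlib 3.10.9.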

Additional observations from a re-analysis of the deposited data

Results flagged for a closer look

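Of 77 sets of 4 samples (each gene and the sum in 7 groups of 4 mice), 11 held a sample set apart from the other 3 by Dixon's criterion at 95%, which chance alone meets in about 1 of 20 sets. In 8 of the 11 it was mouse 3, which is a different animal in each experiment. In VIP-treated sorted cells, Sst was at 78.5 CPM in mouse 3, against 5.61 CPM in the next mouse, and Neurod1 at 11.95 CPM against 5.64. In non-irradiated, VIP-treated cells of the irradiation experiment, Cck was at 962 CPM in mouse 3 against 350.0 CPM, and Sct at 127 against 66.8. Tph1 was high in mouse 3 in non-irradiated, untreated cells (62.4 CPM against 36.9) and in irradiated, VIP-treated cells (84.6 against 56.3), and Ghrl in irradiated, untreated cells (131 against 62.6). The other samples set apart were mouse 1 for Sct in non-irradiated, untreated cells (138 CPM against 93.3), mouse 1 for Sst in irradiated, untreated cells (468 against 147) and mouse 4 for Gip in irradiated, untreated cells (2243 against 1013). In whole organoids, the VIP-treated culture of mouse 3 had the lowest sum of the 10 genes, 943.9 CPM against 1173.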

How the results depend on the processing

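Of 812 values of the members' fold changes under the alternatives, 718 kept direction and side of the threshold, 43 passed it newly, 13 were lost and 38 changed sign, none of the last in a member past the threshold in the reported test. Irradiation of VIP-treated cells called 8 to 10 members in every alternative. The interaction of VIP with compartment called 0 members in all 15 alternatives. The count of members called moved in the other 6 comparisons, and where no cause is named here it was not tested. Without a filter on counts it was 1 with VIP in sorted cells, 4 in non-irradiated and 5 in irradiated cells, 9 with irradiation of untreated cells and 5 in the interaction of VIP and irradiation. These fits had infinite prior degrees of freedom in edgeR (11.1, 27.5 and 15.7 in the reported fits of the 3 experiments), so that the members' own spread did not enter, as in whole organoids without mouse 3. Without the mouse as a replicate block it was 0 with VIP in whole organoids and 2 with irradiation of untreated cells. Calls of single members lost without the block stand beside their results. It was 2 in whole organoids without the second technical library of VIP-treated mouse 3, 1 in sorted cells with library size alone, and 1 and 3 with VIP in non-irradiated and irradiated cells when only these samples were fitted. Leaving out 1 mouse gave 0 to 3 in whole organoids, 0 to 2 in sorted cells, 0 to 2 and 0 to 1 with VIP in non-irradiated and irradiated cells, 3 to 5 with irradiation of untreated cells and 0 to 1 in the interaction. The sum with VIP in irradiated cells was −0.021 without Gcg. All genes called ranged over the alternatives from 99 to 1668 (614 in the reported test) with VIP in whole organoids, 1 to 17 (6) in sorted cells, 32 to 184 (74) and 5 to 110 (22) with VIP in non-irradiated and irradiated cells, 176 to 643 (445) and 426 to 872 (776) with irradiation of untreated and VIP-treated cells, 0 to 34 (0) in the interaction with irradiation and 0 to 57 (15) in that with compartment.

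With VIP in whole organoids Gip was −0.13 with the first technical libraries alone and −0.082 without the library named above, and Sst was 0.058 without the block. In the interaction with compartment, Gcg was −0.24 without the block, −0.050 with the first technical libraries and −0.016 without that library. Leaving out each mouse gave log2 ranges across 0 with VIP in whole organoids (Chga −0.16 to 0.049, Chgb −0.013 to 0.21, Gip −0.055 to 0.074 and Sst −0.080 to 0.031), in sorted cells (Sct −0.30 to 0.17 and Gip −0.63 to 0.45), in non-irradiated cells (Neurod1 −0.28 to 0.23, Gcg −0.51 to 0.043 and Cck −0.62 to 0.094) and in irradiated cells (Neurod1 −0.0073 to 0.48, Sct −0.23 to 0.096 and Ghrl −0.11 to 0.68), with irradiation of untreated cells (Ghrl −0.26 to 0.49), and in the interactions with irradiation (Chga −0.35 to 0.022, Chgb −0.083 to 0.30, Neurod1 −0.23 to 0.62, Sct −0.033 to 0.83 and Tph1 −0.39 to 0.11) and with compartment (Chga −0.27 to 0.12, Gcg −0.22 to 0.46, Tph1 −0.34 to 0.20, Gip −0.65 to 0.35 and Sst −2.11 to 0.65). At 575242 to 1104126 UMIs per sample, Neurod1, Tph1 and Sst fell below the filter on counts in the sorted cells.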
